A study of Homo sapiens with 4 samples.

Results

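The genes described here are 56 genes of G2 and mitosis, the part of the cell cycle in which a cell with copied chromosomes enters division, aligns the chromosomes on a spindle, separates them and splits. They were chosen by gene name from a list, and each of the 56 names matched 1 row among the 58825 genes of the deposited table. All libraries were made from HaCaT, an immortal human keratinocyte cell line, induced to differentiate. Cells of both groups were grown in a medium with 1.2 mM calcium and treated with lentivirus. The tested cells carried a short hairpin RNA against the long noncoding RNA lnc-DC (treatment shlnc-DC, lnc-DC knockdown, 2 libraries), and the other cells carried a control hairpin (shNC, 2 libraries). The stated aim was the differentiation signature of keratinocytes with lnc-DC silenced, and the labels call the libraries biological replicates without saying whether they were separate transductions or clones, so the error behind each p-value is the scatter of these 4 libraries, which may be technical.

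A cell enters mitosis when cyclin B and its kinase CDK1 are switched on by CDC25 phosphatases. Condensin and topoisomerase II then compact the chromosomes, kinesins and other spindle proteins arrange the microtubules, and the spindle checkpoint holds the cell until each kinetochore is attached. The anaphase promoting complex finally marks cyclin B and securin for destruction, and anillin, centralspindlin and ECT2 cut the cell apart. In epidermis these genes belong to the dividing cells of the basal side, and cells that leave the cell cycle to stratify lower them. Transcription of many of them is switched on late in the cycle by FOXM1 and B-MYB, which act together with the MuvB complex. MuvB binds a short DNA element named the cell cycle genes homology region (CHR), often near CCAAT boxes bound by NF-Y.

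The CHR letters were looked for because they are a feature that many of these genes share and that the choice by name did not use. RefSeq promoter sequence (GRCh38.p14) was matched for 47 of the 56 genes. The letters TTTGAA were searched on both strands in the 250 bases before the RefSeq start of each gene, and they stood in 26 of the 47 promoters (55.3%), against 13.6% of 27305 promoters of the same length. CCAAT, searched in the same way, stood in 35 of 47 (74.5%), against 33.0% of all promoters. Both stood in 21 (44.7%), against 4.85% of all, and in 2 of the 47 a CCAAT match and a CHR match overlapped. Windows of 30 bases are shown for MZT1, the only gene of the 56 that passed the test described further on, and for 6 genes that stand for mitotic entry, mitotic exit, cytokinesis and chromosome structure. Each reads 5′ to 3′ on the strand of the gene, with the CHR letters in capitals (TTCAAA is TTTGAA read on the other strand).
MZT1 (chr13:72727734-72727763, minus strand): cgtggctccaaaTTCAAAtcaacgcagcct
CDK1 (chr10:60778158-60778187, plus strand): gagtataataaaTTTGAActgtgccaatgc
CCNB2 (chr15:59105105-59105134, plus strand): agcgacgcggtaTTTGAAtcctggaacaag
PLK1 (chr16:23678848-23678877, plus strand): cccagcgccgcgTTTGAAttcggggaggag
CDC20 (chr1:43358904-43358933, plus strand): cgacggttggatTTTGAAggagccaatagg
KIF23 (chr15:69414282-69414311, plus strand): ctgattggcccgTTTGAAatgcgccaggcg
TOP2A (chr17:40418073-40418102, minus strand): cgagtggtgcctTTTGAAgcctctctagtc

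For CDK1, whose upstream stretch holds both elements close together, the whole 250 bases before the RefSeq start (chr10:60778081-60778330, plus strand) are given, with the CHR and the CCAAT box in capitals.
CDK1 upstream: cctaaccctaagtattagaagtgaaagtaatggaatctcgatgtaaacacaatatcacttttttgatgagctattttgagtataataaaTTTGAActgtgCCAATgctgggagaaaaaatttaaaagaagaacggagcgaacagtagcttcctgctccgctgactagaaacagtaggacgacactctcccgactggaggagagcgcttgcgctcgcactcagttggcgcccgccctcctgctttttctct
A match is a description of the letters and not a bound site. The knockdown minus control differences given below had a median of 0.30 on the log2 scale in the 26 genes with CHR letters and 0.25 in the 21 matched genes without them.

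Expression is given as FPKM, fragments scaled to transcript length and library total, as the authors deposited it. Total read counts were not used here, since the table gives FPKM without counts. Genes of the mitochondrial genome held 28.1% and 26.8% of all FPKM in the knockdown libraries, against 41.2% and 41.9% in the control libraries. The median log2 difference of all 12411 tested genes was 0.09. The targeted transcript, WFDC21P, was at 0.09 and 0.29 FPKM in the knockdown libraries and at 2.15 and 2.76 FPKM in the control libraries, with no overlap. The mean FPKM in knockdown was 0.0774 of that in control, while the log2 difference was -1.54 with the pseudocount of 1 (SE 0.19, limma adjusted p = 0.0715) and -3.22 with a pseudocount of 0.1. The label of keratinocyte was checked on 13 markers, of which 10 reached 1 FPKM in a library. KRT5 and TP63 were present, while KRT14 did not exceed 0.35 FPKM and KRT16 did not exceed 0.35 FPKM. The summed FPKM of the 13 markers was 662 and 681 in knockdown, against 983 and 1008 in control. The widest gaps in this sum were those of KRT5 (123.71 and 156.1 FPKM in knockdown, 270.1 and 304.42 FPKM in control) and SFN (167.28 and 173.59 FPKM, against 292.48 and 318.0 FPKM). The groups overlapped for EPCAM (101.93 and 119.07 FPKM in knockdown, 93.32 and 108.55 FPKM in control), TP63, ITGB4, DSP, JUP, LAMB3 and KRT16. None of 7 fibroblast markers reached 1 FPKM. Of 7 leukocyte markers CD68 (12.9 and 12.4 FPKM in knockdown, 10.25 and 12.16 FPKM in control) and CD14 (1.0 and 1.3 FPKM in knockdown, 3.0 and 1.53 FPKM in control) reached it, and PTPRC and CD207 were at 0 in all 4 libraries. Of 6 melanocyte markers MITF reached it (2.92 to 4.05 FPKM) with TYR and SOX10 at 0, and of 4 endothelial markers CDH5 did (3.52 to 6.42 FPKM) with KDR at 0.

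All 56 genes were expressed, and they stood high among the tested genes. Every gene had a group mean of 1 FPKM or more, the level required for testing, and all 56 lay above the median level of the tested genes, 44 of them above the 75th percentile. The mean FPKM over the 4 libraries had a median of 27.2 over the 56 genes, with a range of 5.83 to 166, and a median of 5.43 over all tested genes. The highest were TPX2, which promotes spindle assembly around chromosomes, UBE2C, the ubiquitin-conjugating enzyme of the anaphase promoting complex, TOP2A and CCNB1. The lowest were BIRC5, KIF15, ESPL1 and CENPE. Summed over the 56 genes, FPKM was 2134 and 2200 in the knockdown libraries and 1803 and 1784 in the control libraries. Of the FPKM that was not mitochondrially encoded, the 56 genes took 1.09% in each knockdown library and 0.959% and 0.907% in the control libraries. A higher share of dividing cells and more of these RNAs per cell cannot be told apart in such libraries.

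**Figure D1:**
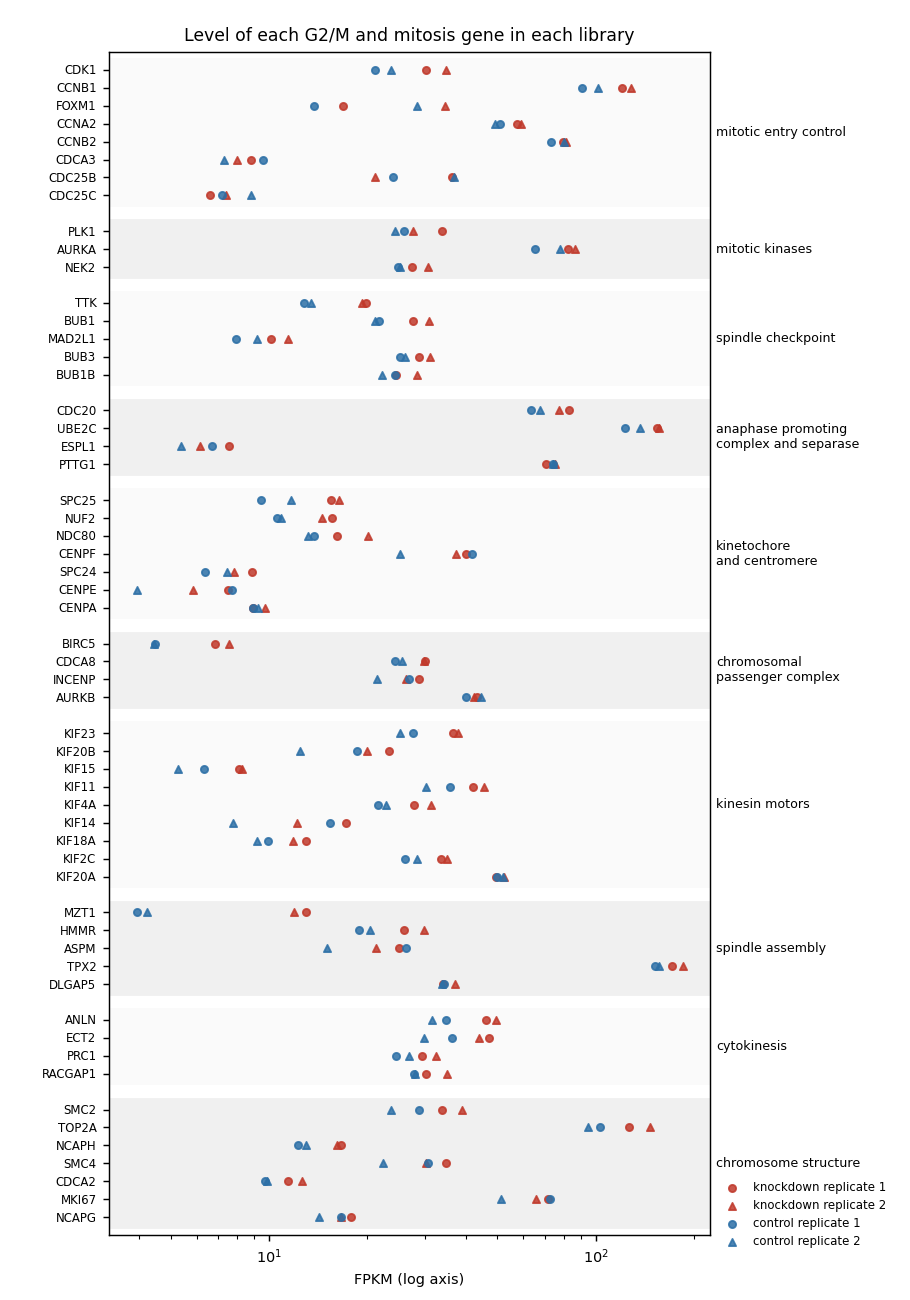
FPKM (log axis) of each of the 56 genes in each of the 4 libraries, grouped by role, with knockdown in red, control in blue, circles for replicate 1 and triangles for replicate 2. Most red points lie a little to the right of the blue points, MZT1 is set apart by the widest gap, and FOXM1 and CDC25B spread widely within each group.

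The comparison of knockdown with control asked which of these genes differed by more than the spread between replicates. MZT1 rose, no gene fell, and 55 of the 56 did not pass the test. Values were taken as log2(FPKM + 1) and tested with limma over all 12411 genes, with an adjusted p under 0.05 as the threshold; this scale understates the change of low genes. The share called over all tested genes was 0.113% higher and 0.137% lower in the knockdown (0.250% in all), and 1 of 56 is 1.79%. The smallest p of an exact permutation test with 2 libraries a group is 0.333, so limma's pooling of spread across genes carries the p-values.

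MZT1, a small protein that recruits the gamma-tubulin ring complex from which spindle microtubules grow, was at 12.96 and 11.90 FPKM in the knockdown libraries, against 3.93 and 4.24 FPKM in the control libraries. Both knockdown libraries lay far above both control libraries, and the libraries within each group lay close together. The mean was 3.04-fold higher (12.4 ± 0.750 FPKM in knockdown and 4.09 ± 0.219 FPKM in control; SD, n = 2 each), with a log2 difference of 1.40 (SE 0.11) and a limma adjusted p = 0.0463. The authors' deposited table gives 1.6 as its log2 ratio. MZT1 (ENSG00000204899) lies on the minus strand of chromosome 13, from 72708357 to 72727687 in GENCODE 29 (GRCh38), and shares no exon with another gene. Its 2 pseudogene copies in the table, MZT1P1 and MZT1P2, did not exceed 0.1 FPKM. The call sat close to the threshold: adjusted p was 0.0514 with nuclear genes rescaled and lay between 0.188 and 0.245 when any 1 library was left out, while the log2 difference stayed between 1.34 and 1.46 in those 4 settings. BORA, an activator of Aurora A whose gene starts on the opposite strand next to MZT1 and which was chosen after its values were seen, was at 9.93 and 10.89 FPKM in knockdown and at 9.29 and 8.51 FPKM in control (adjusted p = 0.358).

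**Figure D2:**
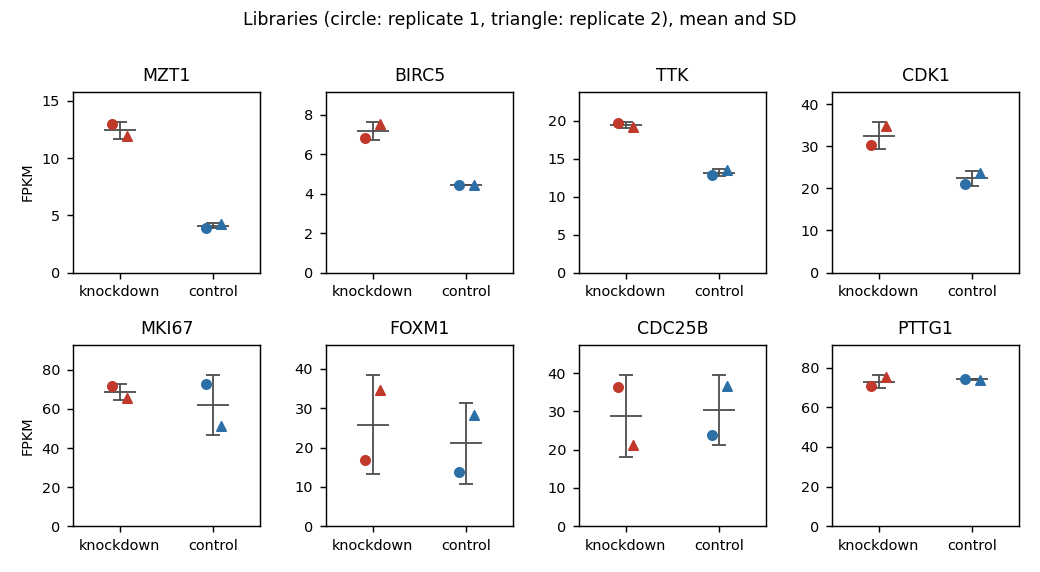
FPKM of 8 of the genes in the knockdown libraries (red, left) and the control libraries (blue, right), with circles for replicate 1, triangles for replicate 2 and the mean with SD in grey. MZT1 stands at 12.96 and 11.90 in knockdown against 3.93 and 4.24 in control, while the groups overlap for MKI67, FOXM1, CDC25B and PTTG1.

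Apart from MZT1 the differences were small and mostly of 1 sign. The estimate lay above 0 for 52 of the 56 genes (92.9%), against 61.4% of all tested genes, and this count was 47 under quantile normalization, under median centring and with GC content and length removed, and 49 with nuclear genes rescaled. The median log2 difference was 0.28, against 0.09 over all tested genes. It was 0.16 under quantile normalization and 0.20 under median centring, where the medians over all genes were 0.02 and 0.01. All 56 genes had a mean of at least 5 FPKM over all libraries. Among the 6531 genes at that level 66.6% lay above 0 and the median was 0.13, so the lead of the 56 was smaller there. Among the 56 genes the largest difference after MZT1 was 0.58 and the lowest -0.17. Both knockdown libraries lay above both control libraries for 37 genes (66.1%), against 35.6% of all tested genes, and both lay below for 0 genes, against 19.2%. The difference exceeded the gap between replicates in both groups for 33 genes, all of them higher in the knockdown, where 28.3% of all tested genes did so in that direction. At an unadjusted p under 0.05, 21 of the 56 were higher and 0 were lower, against 14.8% and 8.00% of all tested genes (22.8% in either direction). This excess depended on the scaling and on which libraries were used. With nuclear genes rescaled it was kept, at 19 of the 56 (33.9%, against 19.9% of all tested genes). These shares and those that follow count either direction. Median centring left 10 of the 56 (17.9%, against 20.8% of all tested genes), quantile normalization 13 (23.2%, against 22.1%) and the removal of GC content and length 14 (25.0%, against 24.7%). With a library left out, the excess was kept without control replicate 1 and absent without knockdown replicate 2. It was narrower without control replicate 2 and without knockdown replicate 1. Each of these fits leaves 1 library in a group.

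**Figure D3:**
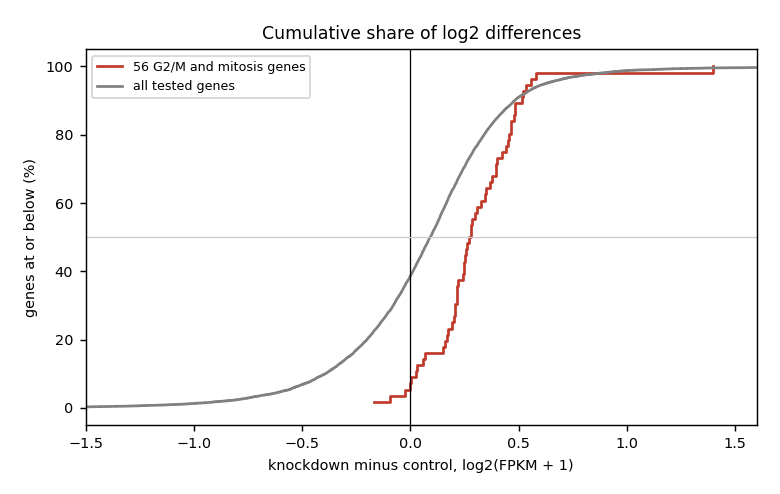
Cumulative share of genes (%) against the knockdown minus control difference on the log2(FPKM + 1) scale, for the 56 genes in red and all 12411 tested genes in grey; differences beyond the axis limits are not drawn. The red curve is shifted to the right, with medians of 0.28 and 0.09, and is much narrower.

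Among the genes that control entry into mitosis, CDK1, the kinase at the centre of the switch, was at 30.20 and 34.84 FPKM in knockdown and at 21.11 and 23.56 FPKM in control. The groups did not overlap, and the mean was 1.46-fold higher, yet the limma adjusted p = 0.122 missed the threshold. Its cyclin CCNB1 was at 120.75 and 127.88 FPKM in knockdown, against 90.72 and 101.69 FPKM in control (1.29-fold, adjusted p = 0.176). CCNA2, cyclin A2, was at 57.62 and 58.96 FPKM in knockdown and at 50.82 and 49.34 FPKM in control, whereas the second B cyclin, CCNB2, overlapped, with 79.41 and 81.08 FPKM in knockdown and 73.07 and 79.93 FPKM in control. The activating phosphatase CDC25C was at 6.59 and 7.37 FPKM in knockdown and at 7.18 and 8.81 FPKM in control, the lowest log2 difference of the 56 genes (-0.17, adjusted p = 0.519). CDCA3, which helps to remove the CDK1 inhibitor WEE1, overlapped between groups, with a log2 difference near 0.

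FOXM1 and CDC25B varied more between replicates than between groups. FOXM1, the transcription factor of the late cell cycle, was at 16.86 and 34.66 FPKM in knockdown and at 13.73 and 28.36 FPKM in control. In both groups replicate 2 was about as far above replicate 1, by 0.998 on the log2 scale in knockdown and by 0.995 in control, and the estimate of 0.28 turned to -0.22 without control replicate 1 and also without knockdown replicate 2. CDC25B, the phosphatase that starts CDK1 activation at the centrosome, was at 36.28 and 21.18 FPKM in knockdown and at 23.95 and 36.74 FPKM in control. Replicate 1 was the higher library in knockdown and the lower in control, and the log2 difference was -0.09 (SE 0.33, adjusted p = 0.886).

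The 3 kinases that are not counted under another role lay higher in both knockdown libraries than in both control libraries. This held for 35.6% of all tested genes. PLK1, a kinase of mitotic entry and spindle assembly, was at 33.91 and 27.66 FPKM in knockdown, against 25.85 and 24.27 FPKM in control. AURKA, the Aurora kinase of spindle poles, was at 82.40 and 86.59 FPKM in knockdown and at 65.02 and 77.53 FPKM in control, and NEK2, a centrosome kinase, was 1.16-fold higher. For PLK1 and AURKA a gap between replicates was larger than the difference between groups, and limma adjusted p was 0.307 to 0.339 for the 3 genes.

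All 5 genes of the spindle checkpoint were higher in both knockdown libraries, as were 35.6% of all tested genes. Their log2 differences were 0.17 to 0.53. TTK, the kinase MPS1 that starts the checkpoint at unattached kinetochores, was at 19.76 and 19.20 FPKM in knockdown and at 12.83 and 13.49 FPKM in control. Libraries of each group lay close together, and the mean was 1.48-fold higher (limma adjusted p = 0.1003, the smallest after MZT1). BUB1, a checkpoint kinase of the kinetochore, was at 27.55 and 30.81 FPKM in knockdown, against 21.78 and 21.13 FPKM in control. MAD2L1, the MAD2 protein that holds back CDC20, was at 10.15 and 11.40 FPKM in knockdown and at 7.94 and 9.20 FPKM in control. BUB3 was 1.17-fold and BUB1B 1.14-fold higher; for BUB1B the gap between the knockdown libraries (24.49 and 28.38 FPKM, against 24.31 and 22.22 FPKM in control) exceeded that difference.

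Of the genes that act at anaphase, CDC20, the activator of the anaphase promoting complex, was at 83.02 and 77.18 FPKM in knockdown and at 63.29 and 67.76 FPKM in control (1.22-fold, limma adjusted p = 0.225). Its pseudogene copy CDC20P1 was listed at 4.11 to 4.70 FPKM, and reads of the pair may have been assigned to either. UBE2C was at 154.10 and 156.06 FPKM in knockdown, against 123.02 and 137.02 FPKM in control. PTTG1, the securin that these enzymes destroy, was at 70.48 and 75.13 FPKM in knockdown and at 74.09 and 73.89 FPKM in control, and ESPL1, the protease separase that securin restrains, overlapped between groups. CDC20 and UBE2C thus lay higher in both knockdown libraries and securin did not. Cyclin B, which the complex also marks for destruction, went with CDC20 and UBE2C in the case of CCNB1. The difference between those genes was not tested.

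The 4 subunits of the NDC80 complex, which ties kinetochores to microtubules, were all higher in both knockdown libraries, as were 35.6% of all tested genes. SPC25 was at 15.49 and 16.39 FPKM in knockdown and at 9.48 and 11.67 FPKM in control (1.51-fold, limma adjusted p = 0.122). NUF2 was at 15.59 and 14.50 FPKM in knockdown, against 10.55 and 10.89 FPKM in control (1.40-fold). NDC80 was at 16.15 and 20.08 FPKM in knockdown and at 13.76 and 13.12 FPKM in control (1.35-fold). SPC24 had the lowest level of the complex and the smallest difference, with 8.90 and 7.80 FPKM in knockdown and 6.35 and 7.45 FPKM in control (1.21-fold). CENPA, the histone that marks the centromere, was at 8.93 and 9.71 FPKM in knockdown and at 8.95 and 9.24 FPKM in control, and overlapped, as did CENPE, a kinetochore motor, and CENPF, a large kinetochore protein.

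The chromosomal passenger complex, which corrects wrong attachments and later directs the cut, was uneven. BIRC5, the subunit survivin, was at 6.85 and 7.52 FPKM in knockdown and at 4.47 and 4.46 FPKM in control. It had the largest difference after MZT1, 1.61-fold (log2 difference 0.58, SE 0.11, limma adjusted p = 0.102), and the groups stood well apart. AURKB, the kinase of the complex, was at 43.33 and 42.56 FPKM in knockdown and at 39.96 and 44.60 FPKM in control, a log2 difference of 0.02 that was -0.10 under quantile normalization. CDCA8, borealin, was higher in both knockdown libraries (29.99 and 29.91 FPKM, against 24.35 and 25.52 FPKM in control), and INCENP, the scaffold, overlapped.

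The 9 kinesin motors had a median log2 difference of 0.39. This median was 0.25 with GC content and length removed and 0.27 under quantile normalization. It was 0.30 without control replicate 2 and 0.52 without control replicate 1. Of the 9 kinesins 6 (66.7%) were higher at an unadjusted p under 0.05, against 14.8% of all tested genes. For the whole gene set, such shares were close to or below those of all tested genes under other settings. These were median centring, quantile normalization and the removal of GC content and length. The kinesins alone were not counted in those settings. KIF23, the motor of centralspindlin, was at 36.48 and 37.99 FPKM in knockdown and at 27.53 and 25.23 FPKM in control (1.41-fold, limma adjusted p = 0.113). KIF11, the motor Eg5 that pushes spindle poles apart, was at 42.07 and 45.43 FPKM in knockdown, against 35.75 and 30.18 FPKM in control. KIF15, which shares that task, was at 8.07 and 8.29 FPKM in knockdown and at 6.32 and 5.25 FPKM in control. The chromokinesin KIF4A (1.33-fold), the microtubule depolymerase KIF2C (1.26-fold) and KIF18A, which limits chromosome movement on the spindle (1.298-fold), also lay higher in both knockdown libraries. KIF20A, a motor of the central spindle, was at 49.41 and 52.58 FPKM in knockdown and at 49.88 and 51.99 FPKM in control, a log2 difference of 0.00 that was negative under all 3 other scalings. KIF20B was 1.40-fold higher with no overlap, but its control libraries lay 0.55 apart on the log2 scale, more than the difference of 0.48.

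Among the other spindle genes, HMMR, a microtubule-binding protein that works with TPX2, was at 25.88 and 29.84 FPKM in knockdown and at 18.89 and 20.39 FPKM in control (1.42-fold, limma adjusted p = 0.128). TPX2 was at 171.47 and 184.48 FPKM in knockdown, against 152.33 and 156.28 FPKM in control (1.15-fold). DLGAP5, which stabilises microtubules near kinetochores, was at 34.19 and 37.00 FPKM in knockdown and at 34.45 and 33.79 FPKM in control. MZT1 therefore stood apart from the 4 other spindle genes of the list, of which the highest log2 difference was 0.48.

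All 4 genes of cytokinesis lay higher in both knockdown libraries, as did 35.6% of all tested genes. Each differed by more than the gap between replicates in either group, as did 28.3% of all tested genes in that direction. ANLN, the contractile ring scaffold anillin, was at 46.29 and 49.42 FPKM in knockdown and at 34.75 and 31.56 FPKM in control (1.44-fold, limma adjusted p = 0.111). ECT2, which activates RhoA at the cleavage site, was at 47.00 and 44.00 FPKM in knockdown, against 36.24 and 29.77 FPKM in control (1.38-fold). RACGAP1, the partner of KIF23 in centralspindlin, was 1.17-fold and PRC1, the microtubule bundler of the midzone, 1.21-fold higher.

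In the group of chromosome structure, TOP2A, the topoisomerase that untangles sister chromatids, was at 126.56 and 147.11 FPKM in knockdown and at 103.06 and 94.58 FPKM in control (1.38-fold, limma adjusted p = 0.150). The core condensin subunit SMC2 was at 33.88 and 39.01 FPKM in knockdown, against 28.73 and 23.68 FPKM in control. Its partner SMC4 overlapped, with 34.90 and 30.34 FPKM in knockdown and 30.58 and 22.28 FPKM in control. NCAPH, a subunit of condensin I, was at 16.57 and 16.18 FPKM in knockdown and at 12.31 and 12.95 FPKM in control, and NCAPG overlapped between groups. CDCA2, which directs a phosphatase to anaphase chromosomes, was 1.23-fold higher with no overlap. MKI67, the proliferation marker Ki-67 that coats mitotic chromosomes, was at 71.69 and 65.79 FPKM in knockdown and at 72.73 and 51.22 FPKM in control, so that its highest value was in a control library.

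**Figure D4:**
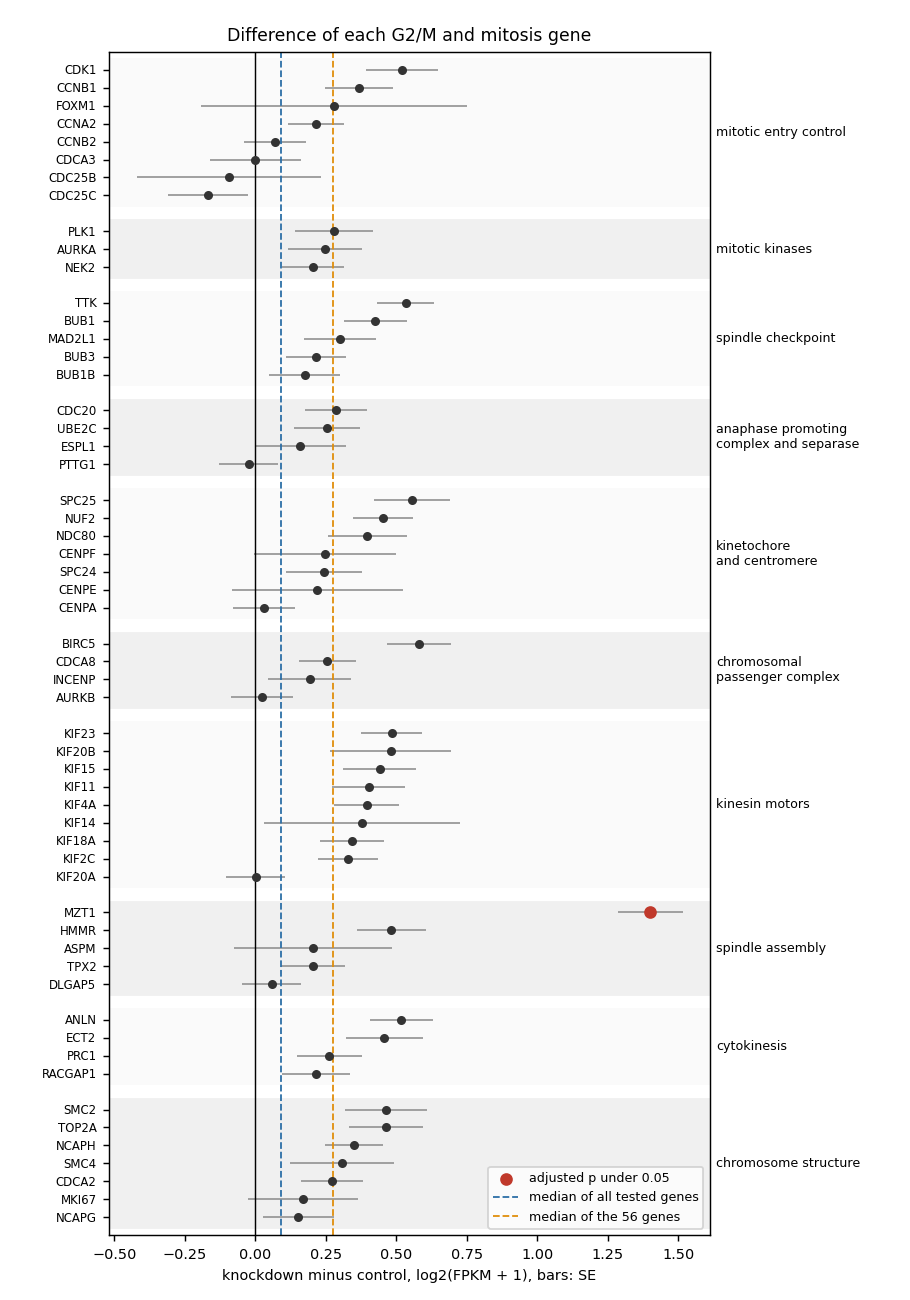
Knockdown minus control difference of each of the 56 genes on the log2(FPKM + 1) scale with its SE, grouped by role; the dashed lines mark the median of all tested genes (0.09) and of the 56 genes (0.28). MZT1, in red, is the only gene with an adjusted p under 0.05, and 4 genes lie below 0.

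The spread between replicates was not the same for all of the genes, and in the control libraries it went with transcript length. Control replicate 2 was below control replicate 1 for 27 of 56 genes, and the 5 with the widest such gaps were KIF14, CENPE, ASPM, CENPF and KIF20B, whose longest transcripts run from 6419 to 10887 bases. ASPM, a spindle pole protein, was at 25.09 and 21.25 FPKM in knockdown and at 26.26 and 15.04 FPKM in control. CENPF was at 40.06 and 37.29 FPKM in knockdown and at 41.70 and 25.15 FPKM in control, and KIF14, a motor of cytokinesis, at 17.26 and 12.21 FPKM in knockdown and at 15.33 and 7.74 FPKM in control. In each of these, control replicate 2 was the lowest of the 4 libraries. Across the 56 genes, the gap between control replicates had a Spearman rho of -0.66 with transcript length, the gap between knockdown replicates -0.22, and over 12394 tested genes these were -0.35 and -0.12. The knockdown minus control difference had a rho of 0.09 with length over the 56 genes. Without control replicate 2 the differences of ASPM, CENPE, CENPF, KIF14 and MKI67 turned negative, at -0.18, -0.19, -0.11, -0.07 and -0.08, while 48 of the 56 lay above 0 and the median was 0.29. The part of transcript length in the level of these 5 genes was not tested.

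**Figure D5:**
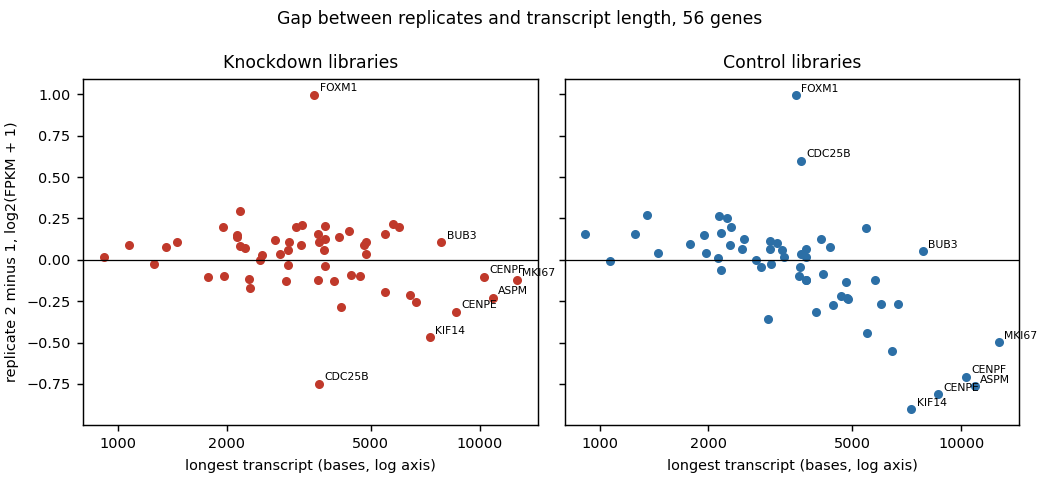
Replicate 2 minus replicate 1 on the log2(FPKM + 1) scale against the length of the longest GENCODE 29 transcript (bases, log axis) for the 56 genes, in the knockdown libraries (left, red) and the control libraries (right, blue). Long genes such as KIF14, CENPE, ASPM and CENPF lie lowest among the control libraries, and FOXM1 lies at 0.998 and 0.995.

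Most of the genes had a GC content below the median of tested genes (39 of 56), and 17 lay above it. The median GC content of the longest transcript was 42.8% over the 56 genes and 47.9% over the tested genes, and across the 56 the log2 difference had a Spearman rho of -0.50 with GC content (-0.22 over 12394 tested genes). MZT1 had the lowest GC content of the 56, at 32.0%. With GC content and length removed the median difference of the 56 was 0.20, against 0.02 over all genes, and MZT1 had a log2 difference of 1.19 (limma adjusted p = 0.0522). By the Gene Ontology terms in the deposited table, 44 of the 56 carry the term cell division, against 2.91% of tested genes, and 26 the term spindle, against 1.41%. For 11 of the 56 an overlapping gene with shared exon positions also reached 1 FPKM (among them CCNA2, CDC25C, FOXM1, CENPA, KIF18A, KIF20A, KIF4A, ANLN, PRC1 and SMC4). Their values are uncertain to that extent, since it is not stated whether counting used the strand. For CENPA and PRC1 such a gene lies on the same strand (SLC35F6 and AC068831.7), where the strand would not separate the reads. The genes are spread over the genome, with 8 on chromosome 1 as the largest group.

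Further genes of the same machinery were taken from lists of 9 kinds. Of these lists 0 genes passed the test over all genes, which only 0.250% of all tested genes passed. The lists were not picked for how the genes moved, though earlier results were known. In the list of the gamma-tubulin ring, to which MZT1 binds, and of augmin, which brings the ring to spindle microtubules, 10 of 19 tested genes lay above 0 and 9 below, with a median of 0.09, the same as that of all genes. TUBGCP3, a ring subunit, was at 9.90 and 10.09 FPKM in knockdown, against 6.40 and 6.37 FPKM in control (limma adjusted p = 0.0944), and TUBGCP5, another ring subunit, at 8.11 and 8.08 FPKM, against 5.62 and 5.00 FPKM in control (adjusted p = 0.111). The augmin subunits HAUS3 and HAUS8 had log2 differences of 0.53 and 0.52. HAUS4, another augmin subunit, named after its values were seen because its difference was the widest of the list, was at 8.25 and 12 FPKM in knockdown, against 20.31 and 15.55 FPKM in control (log2 difference -0.78, adjusted p = 0.151).

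Other kinetochore and checkpoint genes had 27 of 33 above 0 and a median of 0.22. CENPO was at 8.88 and 7.21 FPKM in knockdown and at 3.92 and 3.27 FPKM in control (limma adjusted p = 0.0831), and HJURP, the CENPA chaperone, was 1.39-fold higher (adjusted p = 0.116). SKA2, which helps kinetochores hold on to microtubules, stood on the other side, with 11.14 and 11.69 FPKM in knockdown and 17.72 and 18.49 FPKM in control (adjusted p = 0.0866), as did CENPQ, with 6.56 and 6.71 FPKM in knockdown and 9.53 and 9.54 FPKM in control. Other spindle and midbody genes had 15 of 16 above 0 (median 0.24), led by CKAP2L, a spindle protein, with 14.39 and 17.05 FPKM in knockdown and 7.89 and 10.64 FPKM in control. Other condensin and cohesin genes had 14 of 16 above 0 (median 0.33), with SMC3, a cohesin subunit, at 61.12 and 62.69 FPKM in knockdown and at 46.85 and 39.63 FPKM in control. Of 17 genes of the anaphase promoting complex and its regulators 13 lay above 0 (median 0.19), with UBE2S 1.295-fold higher. Of 11 brakes, phosphatases and phosphatase regulators of mitotic entry 9 did (median 0.22). Of these, the phosphatase genes PPP1CC and PPP2R2A were 1.43-fold and 1.64-fold higher, and MASTL, the Greatwall kinase, was 1.31-fold higher. These 5 lists had no gene with a limma adjusted p under 0.05, against 0.250% of all tested genes.

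Factors that switch the cycle genes on and off were mixed, with 16 of 21 DREAM and E2F genes above 0 and a median of 0.19. TFDP1, the DNA-binding partner of E2F factors, was at 76.01 and 64.71 FPKM in knockdown and at 31.01 and 40.65 FPKM in control (limma adjusted p = 0.0959), and LIN9, a MuvB subunit, was at 6.53 and 7.25 FPKM, against 4.28 and 3.98 FPKM in control (adjusted p = 0.1002). LIN52, another MuvB subunit, lay lower in both knockdown libraries, at 2.56 and 2.70 FPKM, against 3.91 and 3.66 FPKM in control. CDK inhibitors leaned the other way, with 6 of 7 tested genes below 0 and a median of -0.22. CDKN2B, p15, was at 6.42 and 5.27 FPKM in knockdown and at 9.27 and 9.29 FPKM in control (adjusted p = 0.112), and CDKN1A, p21, was at 6.69 and 6.25 FPKM, against 8.27 and 7.90 FPKM in control (adjusted p = 0.223). G1/S genes, which act before G2 and mitosis, had 21 of 25 above 0 and a median of 0.35. Of these, MCM6, a replicative helicase subunit, had the smallest p, with 46.74 and 51.26 FPKM in knockdown and 24.02 and 25.29 FPKM in control (adjusted p = 0.0655).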

How the data were processed

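RNA-seq of 4 HaCaT libraries, 2 with lnc-DC knockdown and 2 with a control hairpin, was analysed. The authors deposited FPKM values per gene with 2 decimals, together with the ratio (fold) of the mean FPKM of the groups and its log2. The tools named, per the submitters' processing notes and without their roles, are StringTie 1.3.4d, HISAT2 2.0.4, cutadapt 1.9, edgeR and DESeq2. The second cDNA strand was marked with dUTP per the labels' protocols; genome build, annotation and the strand setting of the counting: not given in the sources used here. All FPKM columns were matched to samples, leaving 0 over. GENCODE 29 (GRCh38) held 58552 of the 58825 IDs and gave positions, lengths, GC content and exon overlaps; of the 56 genes 21 share exon positions with another gene, 3 of them on the same strand. Depth per library is unknown: low FPKM values of genes with 1 transcript came within 0.1 of a whole read for 32.6% to 35.2% at the best depth tried, against about 18.8% over all depths, so whole reads were not recovered and precision is judged from replicates only.

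Genes whose mean reached 1 FPKM in either group were tested on log2(FPKM + 1) with limma 3.58.1 under R 4.3.3 (group as the only term, variance trend fitted, two-sided, Benjamini-Hochberg over all 12411 tested genes, threshold 0.05). The 56 genes, the further lists and the rule for naming genes (all 56, WFDC21P, up to 4 genes with the smallest p in each further list, cell type markers) were chosen with earlier results of these data known, and lists are described by counts and medians without a test. Alternatives were 2 other pseudocounts, 2 other filters, 3 other scalings, limma without the trend, a replicate block, GC content and length removed, and each library left out.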

Additional observations from a re-analysis of the deposited data

How the results depend on the processing

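The call of MZT1 was lost, so that 0 of the 56 genes passed, with no filter (log2 difference 1.40, limma adjusted p = 0.170), nuclear genes rescaled (1.36), limma without the trend (1.40), the replicate block (1.40, adjusted p = 0.098) and GC content and length removed (1.19), and without each library in turn (1.34 to 1.46, 0 genes called in each). Over its 14 alternatives the adjusted p ran from 0.036 to 0.245. Over all genes, 31 calls became 0 with no filter, 56 with the stricter filter (mean of at least 5 FPKM over all libraries), 57 under quantile normalization, 17 without the trend, 0 with the replicate block and 0 without each library in turn; at an unadjusted p under 0.05 these settings gave 3876, 1779, 2745, 2810, 3791 and 1797 to 2251 genes. The median difference of the 56 genes was 0.16 under quantile normalization, 0.20 under median centring, 0.23 with nuclear genes rescaled, 0.20 with GC content and length removed, and 0.28 to 0.31 without each library in turn. In every setting run it lay above the median of all genes, by 0.14 to 0.26, and 47 to 53 of the 56 lay above 0. The labels number the replicates alike in both groups without saying that the numbers pair them. Replicate 2 minus 1 correlated between groups at r = 0.124 over all tested genes (Spearman rho 0.35) and at r = 0.493 over the 56 genes (rho 0.34). In this balanced design the replicate block leaves each estimate as it is and alters only its error. With it 31 of the 56 (55.4%) had an unadjusted p under 0.05, against 30.5% of all tested genes. Differences near 0 changed sign: under quantile normalization those of AURKB (-0.0997), CCNB2 (-0.0499), CENPA (-0.0742), DLGAP5 (-0.0652) and KIF20A (-0.13), under median centring AURKB (-0.0559), CCNB2 (-0.0105), CENPA (-0.049), DLGAP5 (-0.0216) and KIF20A (-0.0786), with nuclear genes rescaled AURKB (-0.0187), CENPA (-0.0086) and KIF20A (-0.0416), and with GC content and length removed CCNB2 (-0.029), CENPA (-0.0093), DLGAP5 (-0.103), KIF20A (-0.0738) and NCAPG (-0.0171). CDCA3 turned to 0.0001 with a pseudocount of 0.1. Leaving out each library in turn gave both signs for ASPM (-0.178 to 0.587), AURKB (-0.0534 to 0.101), CDC25B (-0.468 to 0.281), CDCA3 (-0.18 to 0.179), CENPA (-0.0236 to 0.0855), CENPE (-0.187 to 0.626), CENPF (-0.107 to 0.601), FOXM1 (-0.22 to 0.778), KIF14 (-0.0724 to 0.83), KIF20A (-0.0427 to 0.0453), MKI67 (-0.0816 to 0.416) and PTTG1 (-0.0692 to 0.0218). The cause of these changes was not tested, and FPKM without counts leaves the counting error of low genes unknown.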
